A study of Arabidopsis thaliana with 11 samples.

Results

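The effect of the cpr5 mutation alone was measured by comparing cpr5 seedlings with wild type of the accession Col-0, with 3 libraries each. These are 6 of the 11 libraries of the series, and all 22160 genes of the count table were considered, of which 21580 passed the filter on low counts and were tested. Each library held strand-specific mRNA of whole Arabidopsis thaliana seedlings, 10 days old, grown on MS medium with sucrose and left untreated. The other 5 libraries come from xpo4-2, a mutant of the exportin gene XPO4 (n = 2), and from xpo4-2 cpr5 plants (n = 3), called the double mutant here, and they gave a separate estimate of the cpr5 effect. The labels name neither the cpr5 allele nor whether the replicates came from separate sowings, and each p-value therefore describes the scatter among these libraries, part of which may be technical.

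CPR5 sits in the membrane of nuclear pores, and its mutants are known for constitutive salicylic acid (SA) defence, spontaneous lesions, early leaf yellowing and small, poorly branched trichomes. Plants detect microbes through receptors at the cell surface and through NLR receptors inside the cell. Both feed into SA synthesis, and SA acts through the NPR receptors to switch on PR genes.

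Levels are CPM, a gene's count set against its library's scaled total, and fold changes are log2 estimates of an edgeR quasi-likelihood fit with Benjamini-Hochberg adjusted p over all tested genes. Where a value in brackets stands before an adjusted p with no other name, it is a log2 fold change. A gene is said to rise or fall where the adjusted p was under 0.05. The libraries held 16922732 to 19976102 counts. CPR5 (AT5G64930, chromosome 5, 25945683 to 25948397, build TAIR10.1) stood at 8.08, 11.4 and 13.3 CPM in wild type and 15.5, 17.8 and 14.98 CPM in cpr5. The groups did not overlap, and the change did not pass (log2 fold change 0.56, SE 0.19, adjusted p = 0.107), so the transcript level is no check of the labels.

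Wild type was the more variable group. The median SD of log2(CPM + 1) over genes was 0.279 in wild type and 0.160 in cpr5. Summed over 31 root markers, the wild-type libraries held 120.5, 229 and 259 CPM and the cpr5 libraries 236, 265.5 and 254 CPM. Summed over 60 nuclear photosystem and antenna genes, they held 105000, 92300 and 62500 CPM in wild type and 92400, 87100 and 84300 CPM in cpr5. Wild-type replicate 1 thus had the lowest root and the highest photosystem sum, and wild-type replicate 3 the reverse. The part of this spread in the results was examined only by leaving out each library in turn. In whole seedlings, fewer cells of a type and less RNA per cell cannot be told apart.

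In cpr5, 928 genes rose (4.30% of those tested) and 505 fell (2.34%), 6.64% in both directions together. The rises were the larger changes, with a median log2 fold change of 1.26 against -0.88 among the falls. A change beyond 1 on the log2 scale was found for 580 of the rises and 188 of the falls. The groups did not overlap for 927 of the 928 rises and 504 of the 505 falls. Over all genes tested the cpr5 libraries lay above every wild-type library for 16.5% and below for 13.5%. The calls were made on these same libraries, so the separation follows largely from the selection and is no separate support. Leaving out 1 library moved the counts widely. They ranged from 357 rises, without cpr5 replicate 1, to 1274, without wild-type replicate 3, and from 98 falls, without cpr5 replicate 3, to 826, without wild-type replicate 3. Of the genes called, 337 rises and 70 falls passed whichever of the 11 libraries was left out. Without cpr5 replicate 1, 356 of the 928 rises and 101 of the 505 falls were left. Counts of list and family members below are to be read beside 4.30% and 2.34%, and counts of calls left beside these numbers. Where a gene's change against wild type is given and its call was lost in this way, the highest adjusted p over these 11 fits is given with the library left out.

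**Figure D1:**
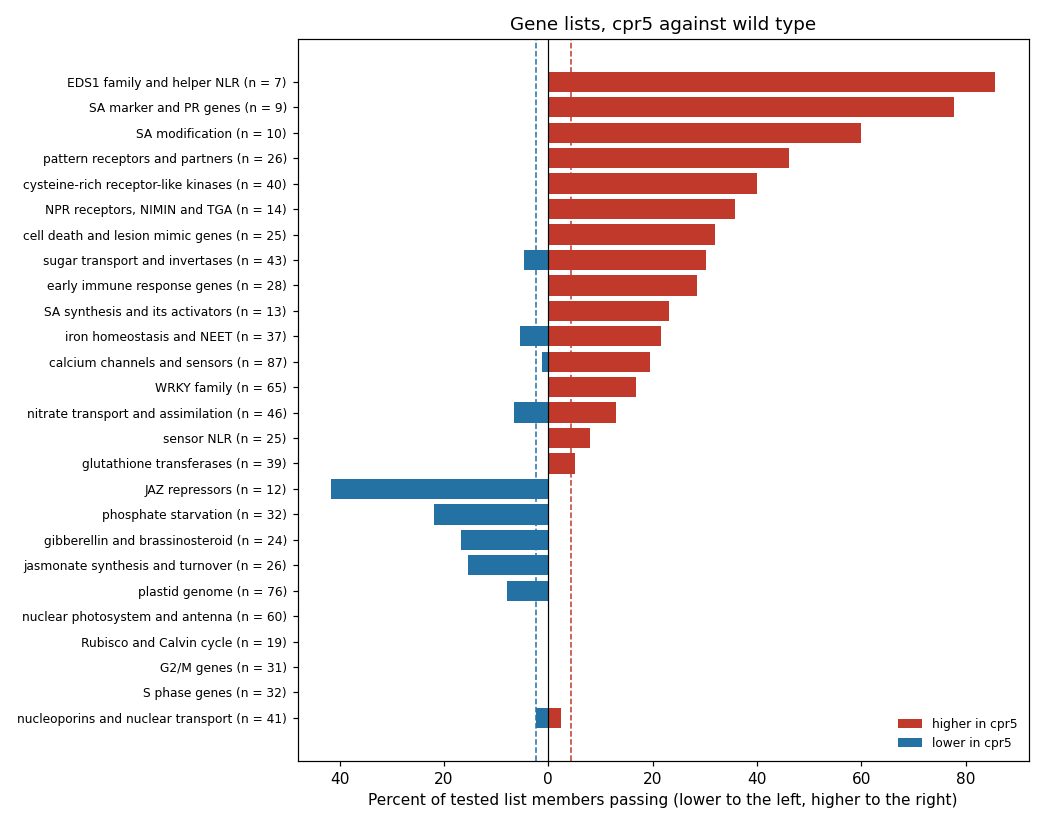
Share of the tested members of 26 gene lists that passed in cpr5 against wild type, with rises to the right and falls to the left in percent and the number tested in brackets. Dashed lines mark the shares over all genes tested, 4.30% and 2.34%. Immune lists lie on the right, while JAZ repressors (41.7%) and phosphate starvation genes (21.9%) lie on the left.

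Receptors at the cell surface rose in part. Of 26 pattern receptors and their partners 12 rose and none fell, with 16 of the 26 above 0 and a median log2 fold change of 0.50 against -0.01 over all genes tested. RLP23, the receptor of a peptide from microbial NLP toxins, showed the largest change of the list. Its level (AT2G32680, chromosome 2, 13859769 to 13862614) was 0.362, 1.38 and 2.42 CPM in wild type and 85.9, 41.7 and 51.5 CPM in cpr5 (log2 fold change 5.39, SE 0.56, adjusted p = 0.000906). Every cpr5 library lay far above every wild-type library. SOBIR1, the kinase that partners receptor-like proteins, stood at 157, 174 and 197 CPM in wild type and 445, 357 and 373 CPM in cpr5 (1.16, adjusted p = 0.00118). LYK4, a LysM receptor kinase of chitin perception, rose by 1.05 (adjusted p = 0.00533), and the cytoplasmic kinase PBL2 rose by 0.91 (adjusted p = 0.00843). BIR1, a receptor kinase that restrains BAK1, rose by 0.82 (adjusted p = 0.00883). CERK1, BIK1 and BAK1 rose by 0.68, 0.80 and 0.49, and each lost its call without some library, with an adjusted p of up to 0.145, 0.0772 and 0.0906, each time without cpr5 replicate 1. FLS2, the flagellin receptor, was at 100.1, 78.04 and 98.97 CPM in wild type and 73.8, 66.7 and 77.9 CPM in cpr5, and its change did not pass (-0.34, adjusted p = 0.582). The list count was lowest, at 5 of the 12, without cpr5 replicate 1.

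Rises were also counted by annotated receptor family, and these families were picked after their values were seen. Of 45 genes described as receptor-like proteins 11 rose and none fell, and 5 of the 11 passed whichever library was left out. They included RLP36 and RLP38, with log2 fold changes of 2.80 and 3.51 (adjusted p = 0.00115 and 0.00341). Of 125 lectin proteins, many of them receptor kinases with a sugar-binding domain, 29 rose (23.2% against 4.30% over all genes) and none fell. Of the 29, 12 passed whichever library was left out. The legume lectin AT3G15356 was one of these 12, at 107, 111 and 184 CPM in wild type and 573, 637 and 702 CPM in cpr5 (2.25, adjusted p = 0.00118). Of 40 cysteine-rich receptor-like kinases 16 rose and none fell (median 0.97), with 7 of the 16 left without cpr5 replicate 1. CRK45 rose from 11.9 ± 5.65 to 54.5 ± 15.5 CPM (mean ± SD, n = 3, log2 fold change 2.2, adjusted p = 0.00465), CRK15 by 2.19 and CRK37 by 2.99 (adjusted p = 0.00847 and 0.00908). The leucine-rich repeat kinase AT1G35710 stood at 17.7, 26.7 and 21.05 CPM in wild type and 373, 176 and 184 CPM in cpr5 (3.49, adjusted p = 0.000441). Of 11 wall-associated kinases 4 rose, and 1 of the 4, WAKL22 (0.79, adjusted p = 0.00818), passed whichever library was left out.

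Of 25 intracellular NLR receptors known as sensors 2 rose and none fell (8.0%, median log2 fold change 0.36), and neither was left without wild-type replicate 2. The annotated classes, which were picked after their values were seen, gave further counts. Of 109 tested genes described as TIR-NBS-LRR or TIR-NBS proteins, which carry a TIR domain at the front, 24 rose and none fell (22.0%, median log2 fold change 0.62). Of 52 described as CC-NBS-LRR proteins, which carry a coiled coil there, 2 rose and none fell (3.85%, median 0.13), a share near that of all genes. Whichever library was left out, 8 of the 24 and 1 of the 2 passed, and the difference between the classes was not tested. The TIR-type gene AT5G41750 stood at 26.9, 71.5 and 81.8 CPM in wild type and 460.5, 323 and 306 CPM in cpr5 (log2 fold change 2.6, SE 0.36, adjusted p = 0.00341). AT5G58120 stood at 27.1, 32.5 and 19.99 CPM in wild type and 113, 88.5 and 93.9 CPM in cpr5 (1.89, adjusted p = 0.000749), and AT1G56520 at 16.5, 15.6 and 16.1 CPM in wild type and 44.3, 35.7 and 31.7 CPM in cpr5 (1.21, adjusted p = 0.00123). The wild-type and cpr5 libraries were separate for all 3 genes. SNC1, a TIR-type receptor whose overactive form gives constitutive defence, rose by 0.53 (adjusted p = 0.0388, and 0.133 without cpr5 replicate 1).

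TIR-type receptors signal through the EDS1 family and the helper NLRs, and 6 of these 7 genes rose. EDS1, the lipase-like hub of TIR signalling, stood at 39.4, 52.3 and 39.8 CPM in wild type and 111, 105 and 89.7 CPM in cpr5 (log2 fold change 1.22, SE 0.15, adjusted p = 0.00159). Its partner PAD4 rose from 31.9 ± 11.7 to 85.04 ± 21.2 CPM (1.41, adjusted p = 0.0129, and 0.0592 without cpr5 replicate 1), and its partner SAG101 by 0.85 (adjusted p = 0.0216, and 0.0831 without cpr5 replicate 1). Of the helper NLRs, ADR1-L2 was at 59.8, 61.3 and 64.2 CPM in wild type and 102, 92.98 and 93.5 CPM in cpr5 (0.64, adjusted p = 0.0052), a small change between groups with little spread. ADR1-L1 and ADR1 rose by 1.37 and 0.77, with an adjusted p of 0.0574 without cpr5 replicate 1 and 0.138 without cpr5 replicate 2. Only 2 of the 6 calls, EDS1 and ADR1-L2, were left without cpr5 replicate 1.

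**Figure D2:**
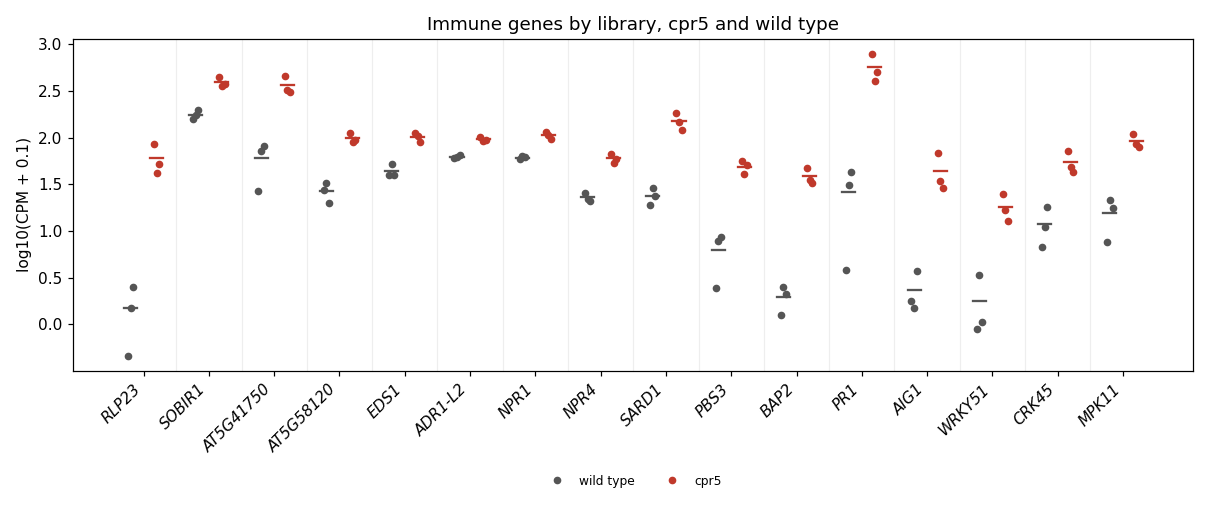
Level of 16 immune genes in each wild-type (grey) and cpr5 (red) library, as log10(CPM + 0.1), with a bar at the group mean. For every gene shown the 3 cpr5 libraries lie above the 3 wild-type libraries, by the most for RLP23.

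SARD1 and CBP60G, the transcription factors that switch on SA synthesis, and PBS3, the enzyme that conjugates isochorismate, were the 3 of 13 genes that rose, and all 3 passed whichever library was left out. SARD1 (AT1G73805, chromosome 1, 27744790 to 27749248) was at 18.7, 28.7 and 23.4 CPM in wild type and 183, 147 and 120.2 CPM in cpr5 (log2 fold change 2.67, SE 0.20, adjusted p = 0.000187). ICS1, the isochorismate synthase that makes most SA in defence, was at 13.98, 21.1 and 34.4 CPM in wild type and 57.7, 43.2 and 42.8 CPM in cpr5 and did not pass (1.05, adjusted p = 0.0554), although the groups did not overlap. The other isochorismate synthase, ICS2, was at 12.2, 15.4 and 15.8 CPM in wild type and 5.71, 5.18 and 7.07 CPM in cpr5, with a log2 fold change that did not pass either, -1.27 (adjusted p = 0.0556). Of 10 genes that modify SA 6 rose. They include the SA hydroxylases DMR6 and DLO1, by 2.62 and 3.46 (adjusted p = 0.00064 and 0.00607), the glucosyltransferase UGT74F2, by 0.71 (0.0171, and 0.0696 without cpr5 replicate 1), and the acyl amido synthetase GH3.5, by 1.51 (0.0089). Without wild-type replicate 2, 3 of these 6 were left.

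NPR1, NPR3 and NPR4, the SA receptors, rose. NPR1, the receptor that activates SA genes, was at 58.2, 63.4 and 61.7 CPM in wild type and 116, 106 and 96.8 CPM in cpr5 (log2 fold change 0.80, SE 0.11, adjusted p = 0.00316). NPR3, which acts as a repressor, was at 93.6, 102 and 90.9 CPM in wild type and 228, 178 and 166 CPM in cpr5 (1.00, adjusted p = 0.0037), and NPR4, also a repressor, at 25.6, 22.01 and 20.7 CPM in wild type and 66.8, 52.96 and 59.3 CPM in cpr5 (1.39, adjusted p = 0.00208). Both the activating and the repressing receptors were thus higher in every cpr5 library than in any wild-type library. NIMIN1, a small protein that binds NPR1, was at 0.784, 1.38 and 1.68 CPM in wild type and 18.7, 9.63 and 7.01 CPM in cpr5 (3.18, adjusted p = 0.00752).

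Downstream, 7 of 9 SA marker genes rose and none fell, with a median log2 fold change of 2.95. PR1 was at 3.68, 31.02 and 42.6 CPM in wild type and 787, 407 and 506 CPM in cpr5 (log2 fold change 4.46, SE 0.77, adjusted p = 0.00877). Wild-type replicate 1 was the lowest library. PR2, a secreted glucanase, was at 3.86, 9.08 and 18.4 CPM in wild type and 123, 42.8 and 76.8 CPM in cpr5 (2.95, adjusted p = 0.0129, and 0.0542 without cpr5 replicate 1). PR5, a thaumatin-like protein, rose by 2.16 (adjusted p = 0.0142, and 0.0592 without cpr5 replicate 1). AIG1, a GTP-binding protein induced by avirulent bacteria, was at 1.69, 1.38 and 3.63 CPM in wild type and 68.6, 34.01 and 29.1 CPM in cpr5 (4.28, adjusted p = 0.00115). AED1, a secreted aspartyl protease, rose by 2.38 (adjusted p = 0.00926). Without cpr5 replicate 1, 4 of the 7 passed. Of 7 PR genes of the ethylene and jasmonate branch 1 rose (14.3% against 4.30% over all genes). In this branch 6 of the 7 had a log2 fold change above 0, with a median of 0.88. The gene that rose was the defensin PDF1.2, from 0.537 ± 0.182 to 4.38 ± 2.88 CPM (3.01, adjusted p = 0.0244, and 0.0936 without cpr5 replicate 3).

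Of 65 WRKY transcription factors 11 rose and none fell (16.9%, median 0.63), and 5 of them, WRKY33, WRKY15, WRKY46, WRKY51 and WRKY63, passed whichever library was left out. WRKY33, the best known activator of camalexin synthesis, stood at 88.01, 104 and 132 CPM in wild type and 370.2, 299 and 339 CPM in cpr5 (log2 fold change 1.64, SE 0.19, adjusted p = 0.00123). WRKY51, which links SA to the repression of jasmonate signalling, stood at 0.784, 3.25 and 0.947 CPM in wild type and 24.97, 16.7 and 12.7 CPM in cpr5 (3.46, adjusted p = 0.00624). WRKY70 and WRKY54, paired regulators of SA responses, rose by 1.2 and 1.34, and both calls were lost without cpr5 replicate 1 (adjusted p = 0.114 and 0.102).

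WRKY factors bind the W-box, and its share among the promoters was therefore counted. The 300 bases before each annotated gene start were searched on both strands, in RefSeq's TAIR10.1 genome, for TTGACC or TTGACT. A W-box was found in 444 of 928 genes that rose (47.8%), in 127 of 499 that fell with a promoter in the genome (25.5%) and in 6918 of all 21457 (32.2%). The share was 49.3% among the 337 rises that passed whichever library was left out. The element TGACG, bound by TGA factors, was found before 26.8% of genes that rose, 24.6% of those that fell and 21.9% of all. The G-box CACGTG was found before 6.57%, 10.6% and 7.81%, and the GCC box GCCGCC before 2.26%, 1.80% and 2.42%. The W-box was the motif whose share differed most between genes that rose and all genes. Among the genes of the SA lists it was rarer, in 7 of 31 members (22.6%) and in 2 of the 15 that rose (13.3%). These shares are descriptions without a test, and a match is not a binding site. Promoters of 4 immune genes that passed whichever library was left out are printed 5′ to 3′ on the strand of the gene, ending at the base before the gene start, with W-boxes and TGACG elements in capitals.
RLP23 (chr2:13862615-13862914, minus strand): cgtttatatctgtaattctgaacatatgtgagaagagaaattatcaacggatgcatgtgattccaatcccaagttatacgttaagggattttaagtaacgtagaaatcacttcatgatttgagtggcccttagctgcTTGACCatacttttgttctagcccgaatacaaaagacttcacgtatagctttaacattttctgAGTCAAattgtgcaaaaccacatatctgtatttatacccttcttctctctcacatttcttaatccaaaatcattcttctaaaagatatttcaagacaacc
WRKY33 (chr2:16107935-16108234, plus strand): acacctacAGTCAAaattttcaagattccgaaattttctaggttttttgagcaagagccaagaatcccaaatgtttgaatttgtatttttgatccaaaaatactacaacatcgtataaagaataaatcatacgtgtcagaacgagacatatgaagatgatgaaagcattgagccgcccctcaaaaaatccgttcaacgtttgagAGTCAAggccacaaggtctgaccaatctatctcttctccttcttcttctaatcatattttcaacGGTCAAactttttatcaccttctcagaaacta
SARD1 (chr1:27749249-27749548, minus strand): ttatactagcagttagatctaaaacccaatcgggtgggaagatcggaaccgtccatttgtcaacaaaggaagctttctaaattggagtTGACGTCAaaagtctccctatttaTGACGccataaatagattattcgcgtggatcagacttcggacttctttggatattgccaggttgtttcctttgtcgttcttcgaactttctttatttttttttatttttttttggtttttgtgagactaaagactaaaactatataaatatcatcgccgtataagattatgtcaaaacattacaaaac
BAP2 (chr2:18847836-18848135, minus strand): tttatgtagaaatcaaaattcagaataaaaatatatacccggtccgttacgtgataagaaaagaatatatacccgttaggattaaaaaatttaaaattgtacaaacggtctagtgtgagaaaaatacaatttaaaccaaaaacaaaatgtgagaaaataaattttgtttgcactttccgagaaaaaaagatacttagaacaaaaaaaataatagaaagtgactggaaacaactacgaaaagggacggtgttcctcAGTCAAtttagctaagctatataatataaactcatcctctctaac
RLP23 holds 2 W-boxes, which begin 163 and 100 bases before the gene start, WRKY33 holds 3 and BAP2 holds 1, at 45 bases. SARD1 holds no W-box and 3 TGACG elements, of which the first and second overlap on opposite strands. No W-box and TGACG element share a base in these promoters.

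Signalling genes between receptor and nucleus rose in part. Of 87 calcium channel, pump and sensor genes 17 rose and 1 fell, with 4 rises left without cpr5 replicate 1. These shares were 19.5% and 1.15%, against 4.30% and 2.34% over all genes. The fall was CNGC2, the channel whose loss gives the autoimmune dnd1 mutant, at 404, 507 and 343 CPM in wild type and 194, 147 and 169 CPM in cpr5 (log2 fold change -1.30, SE 0.18, adjusted p = 0.00355). Its relative CNGC10 rose, from 11.5 ± 2.84 to 30.5 ± 1.49 CPM (1.40, adjusted p = 0.00876), and the calcium pump ACA2 stood at 74.6, 106 and 98.8 CPM in wild type and 214, 189.9 and 218 CPM in cpr5 (1.15, adjusted p = 0.00821). CPK22, a calcium-dependent kinase, was at 0.0603, 0.1804 and 0 CPM in wild type and 2.99, 2.95 and 3.32 CPM in cpr5 (adjusted p = 0.01), on 4 counts in all of wild type. Of 28 early immune response genes 8 rose and none fell, with 5 left without cpr5 replicate 1. The MAP kinase MPK11, one of them, was at 7.53, 21.4 and 17.4 CPM in wild type and 109, 85.6 and 78.5 CPM in cpr5 (2.56, adjusted p = 0.00153). MPK3 rose by 0.77 (adjusted p = 0.0101, and 0.0506 without cpr5 replicate 1).

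Cell death and secretion lists held rises and no falls. Of 25 cell death and lesion mimic genes 8 rose and none fell (median 0.56), with 4 left without cpr5 replicate 1. BAP2, which restrains cell death with the BON proteins, was at 1.15, 2.405 and 1.999 CPM in wild type and 47.7, 35.00 and 32.7 CPM in cpr5 (log2 fold change 4.37, SE 0.28, adjusted p = 4.31e-05). NUDT6, a nudix hydrolase, rose by 2.87 (adjusted p = 0.00422), and PLA2A, a patatin-like lipase, stood at 75.5, 86.9 and 177 CPM in wild type and 513, 458 and 494 CPM in cpr5 (2.11, adjusted p = 0.00235). HIR2, a membrane protein of hypersensitive responses, rose by 0.99 (adjusted p = 0.00859). The metacaspase MC2 rose by 1.97 (adjusted p = 0.0118, and 0.0542 without cpr5 replicate 1). MC8, another metacaspase, was at 0, 0.661 and 0.158 CPM in wild type and 6.08, 4.97 and 5.497 CPM in cpr5 (adjusted p = 0.0107). Of 24 genes of the secretory pathway 5 rose and none fell, with 3 left without cpr5 replicate 1. The syntaxin SYP121 and the exocyst subunits EXO70B2 and EXO70E2, which deliver vesicles to attacked membranes, rose by 0.72, 0.92 and 0.92 (adjusted p = 0.01, 0.00902 and 0.00316). PEN3, a transporter of defence compounds, had the largest rise in CPM among the genes that passed, at 1706, 2211 and 2176 CPM in wild type and 4257, 3705 and 3945 CPM in cpr5 (0.97, adjusted p = 0.00737), and PEN2, the glucosinolate-cleaving enzyme of the same defence, was at 238, 211 and 322 CPM in wild type and 500.0, 522 and 549.5 CPM in cpr5 (1.03, adjusted p = 0.00419).

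Indole glucosinolates are the substrates of PEN2, and 4 of 26 camalexin and indole glucosinolate genes rose and 1 fell. MYB51, the activator of their synthesis, rose from 47.5 ± 9.82 to 105 ± 7.27 CPM (1.14, adjusted p = 0.00394). The methyltransferases IGMT1 and IGMT2 both rose. IGMT1 was at 13.1, 16.5 and 15.9 CPM in wild type and 58.3, 56.6 and 58.4 CPM in cpr5 (1.93, adjusted p = 0.00459). IGMT2 was at 3.496, 4.63 and 3.63 CPM in wild type and 22.4, 23.8 and 27.7 CPM in cpr5 (2.65, adjusted p = 0.00533). The methyltransferases are near copies of each other, so reads may be split between them. CYP81F2, which makes their substrate, rose by 2.06 (adjusted p = 0.000299). IGMT5 moved the other way, by -1.05 (adjusted p = 0.0389, and 0.153 without cpr5 replicate 1). Of 39 glutathione transferases 2 rose, a share near that of all genes (5.13% against 4.30%).

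Repressors of jasmonate signalling fell in part. Jasmonate signalling, often opposed to SA, is held in check by JAZ repressors, whose genes are themselves induced by jasmonate. Of 12 JAZ genes 5 fell and none rose, with a median log2 fold change of -0.97, and in 9 of the 12 every cpr5 library lay below every wild-type library. JAZ9 was at 1248, 1272 and 709 CPM in wild type and 535, 536 and 459 CPM in cpr5 (log2 fold change -1.08, SE 0.25, adjusted p = 0.0285). JAZ2 was at 317, 409 and 227 CPM in wild type and 127, 165 and 127 CPM in cpr5 (-1.18, adjusted p = 0.0162), and JAZ7 at 216, 254 and 135 CPM in wild type and 80.9, 92.9 and 65.00 CPM in cpr5 (-1.34, adjusted p = 0.0398). Wild-type replicate 3 was the lowest wild-type library for all 3 and came nearest to cpr5. No JAZ call was left without wild-type replicate 2, and none without cpr5 replicate 1 or without cpr5 replicate 3. Over the fits that each leave out a library, the adjusted p reached 0.0783 for JAZ2, without cpr5 replicate 1. For JAZ7 and JAZ9 it reached 0.146 and 0.113, both without cpr5 replicate 3. The other calls, JAZ3 and JAZ6, were log2 fold changes of -1.05 and -0.96 (adjusted p = 0.0214 and 0.0284), whose adjusted p reached 0.097 without cpr5 replicate 1 and 0.108 without cpr5 replicate 3. In the xpo4-2 background 3 of the 12 fell and none rose, where 15.5% of all genes tested fell. Without xpo4-2 replicate 1, 2 of the 12 fell there. The difference between the backgrounds passed for none of the 12 with edgeR.

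Of 26 genes of jasmonate synthesis and turnover 4 fell (15.4% against 2.34% over all genes) and none rose, and 2 falls were left without wild-type replicate 2. These were CYP94B1 and CYP94C1, which oxidize and inactivate the active hormone jasmonoyl-isoleucine. CYP94B1 was at 171, 292 and 145 CPM in wild type and 45.8, 53.6 and 57.8 CPM in cpr5 (-1.95, adjusted p = 0.00209). CYP94C1 was at 712, 824 and 428 CPM in wild type and 256, 242 and 211 CPM in cpr5 (-1.47, adjusted p = 0.00542). Both passed whichever library was left out. ILL6, which cleaves the hormone conjugate, fell by 0.77 (adjusted p = 0.0149, and 0.0691 without cpr5 replicate 1). The synthesis enzyme AOS was at 1117, 1563 and 633 CPM in wild type and 578, 641 and 536 CPM in cpr5 and did not pass (-0.92, adjusted p = 0.0708). None of 19 output genes of jasmonate passed with edgeR, where the unadjusted p was under 0.05 for 6 of them and DESeq2 called 3, all lower. Over all 21580 genes tested the unadjusted edgeR p was under 0.05 for 4788, and DESeq2 called 2611.

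DELLA proteins, the repressors of gibberellin signalling that also bind JAZ, also included falls. RGL3, the DELLA that responds to jasmonate, was at 72.2, 63.4 and 27.7 CPM in wild type and 14.1, 16.6 and 16.7 CPM in cpr5 (-1.78, adjusted p = 0.00893, and 0.051 without cpr5 replicate 1). RGL1 was at 33.6, 31.7 and 19.8 CPM in wild type and 8.96, 11.8 and 9.24 CPM in cpr5 (-1.50, adjusted p = 0.0216, and 0.0976 without cpr5 replicate 1), and GAI fell by 0.62 (adjusted p = 0.0351, and 0.121 without cpr5 replicate 3). The gibberellin-inactivating enzyme GA2OX8 fell by 1.90 (adjusted p = 0.0148, and 0.0682 without cpr5 replicate 3). These were the 4 falls among 24 gibberellin and brassinosteroid genes (16.7% against 2.34% over all genes), of which none rose. None of the 4 falls was left without cpr5 replicate 1.

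**Figure D3:**
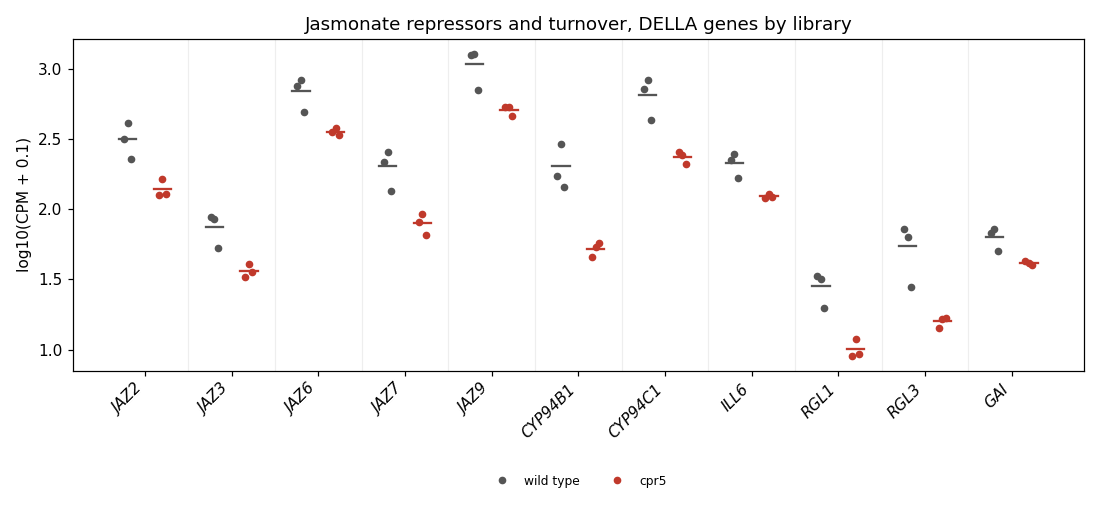
Level of JAZ repressors, jasmonate turnover enzymes and DELLA genes in each wild-type (grey) and cpr5 (red) library, as log10(CPM + 0.1), with a bar at the group mean. The cpr5 libraries lie below wild type for every gene shown, and the groups stand farthest apart for CYP94B1.

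IRT1 and the bHLH genes that control it were close to 0 in wild type and present in cpr5. Iron-deficient roots acidify the soil, reduce iron and import it through IRT1, under the control of FIT and of the 4 bHLH factors of subgroup Ib. Of 37 iron genes 8 rose and 2 fell (21.6% and 5.41%, against 4.30% and 2.34% over all genes). IRT1 (AT4G19690, chromosome 4, 10707344 to 10709015) was at 0, 0.0601 and 0 CPM in wild type and 6.78, 1.605 and 4.35 CPM in cpr5 (adjusted p = 0.00394). The wild-type libraries held 1 count of it in all, which puts the ratio of summed counts at 220.0 (95% counting interval 39.1 to 8730.0). BHLH39 was at 0.181, 0.0601 and 0.105 CPM in wild type and 2.13, 0.8801 and 1.63 CPM in cpr5 (3.68, adjusted p = 0.00772), and BHLH38 at 0, 0.0601 and 0 CPM in wild type and 1.23, 1.09 and 0.967 CPM in cpr5, a ratio of 57.4 (95% counting interval 9.91 to 2300.0) on 1 wild-type count (adjusted p = 0.0154, and 0.0541 without cpr5 replicate 1). BHLH100 had no count in wild type and 1.92, 0.518 and 2.24 CPM in cpr5, at least 27.1-fold higher against a floor of 3 counts over the wild-type libraries (adjusted p = 0.0201, and 0.0643 without cpr5 replicate 1). BHLH101, the fourth factor, was at 0.603, 0.2405 and 0.421 CPM in wild type and 2.61, 1.66 and 2.66 CPM in cpr5 (adjusted p = 0.0478, and 0.141 without cpr5 replicate 1). All 4 rose, to levels under 3 CPM. Such intervals cover counting error only. BTS, a ubiquitin ligase that restrains the response, was at 75.05, 85.4 and 71.9 CPM in wild type and 173, 137 and 129.8 CPM in cpr5 (0.92, adjusted p = 0.00667), and OPT3, which loads iron into the phloem, rose by 0.62 (adjusted p = 0.01).

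The falls of the iron list were FER3 and NEET. The ferritin FER3 was at 129, 136 and 166 CPM in wild type and 81.4, 59.9 and 90.4 CPM in cpr5 (-0.89, adjusted p = 0.0193, and 0.0717 without cpr5 replicate 2), and the iron-sulfur protein NEET at 126, 83.03 and 58.7 CPM in wild type and 26.5, 31.4 and 24.8 CPM in cpr5 (-1.70, adjusted p = 0.0238, and 0.102 without cpr5 replicate 3). FIT and the reductase FRO2 did not pass, with log2 fold changes of 1.06 and 2.38 (adjusted p = 0.144 and 0.186). Without cpr5 replicate 1, 4 of the 8 rises and neither of the falls were left. Root markers were higher beside these genes (27 of 31 with a log2 fold change above 0, median 0.60, 1 passing), and their part in the result was not tested. The root marker sums were 120.5, 229 and 259 CPM in wild type and 236, 265.5 and 254 CPM in cpr5.

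Phosphate starvation genes fell in part. Plants short of phosphate switch on, through the factor PHR1, the RNAs IPS1 and AT4, phosphatases, and enzymes that replace phospholipids by sulfolipid and galactolipid. Of 32 such genes 7 fell and none rose (21.9% against 2.34% over all genes), with a median log2 fold change of -0.89, and 5 falls were left without cpr5 replicate 1, the fewest. AT4 (AT5G03545, chromosome 5, 894582 to 895517) was at 301, 421 and 581 CPM in wild type and 25.2, 57.2 and 63.01 CPM in cpr5 (log2 fold change -3.16, SE 0.37, adjusted p = 0.00123). IPS1, its close relative, was at 34.00, 72.4 and 125 CPM in wild type and 1.49, 4.92 and 3.62 CPM in cpr5 (-4.53, adjusted p = 0.00318). Both RNAs were lowest in wild-type replicate 1 and highest in wild-type replicate 3, and every cpr5 library was lower still.

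Among the falls were lipid enzymes of this response. SQD1, the first enzyme of sulfolipid synthesis, was at 118, 103 and 146 CPM in wild type and 50.1, 52.2 and 49.8 CPM in cpr5 (-1.27, adjusted p = 0.00118). SQD2, the second enzyme, was at 139, 166 and 216 CPM in wild type and 68.1, 80.3 and 79.7 CPM in cpr5 (-1.19, adjusted p = 0.0172, and 0.0819 without cpr5 replicate 1). MGD2, a galactolipid synthase of phosphate starvation, was at 19.7, 19.96 and 37.8 CPM in wild type and 6.24, 6.89 and 6.04 CPM in cpr5 (-2.01, adjusted p = 0.00266), and the acid phosphatase PAP12 at 61.9, 71.97 and 89.7 CPM in wild type and 33.8, 35.6 and 39.6 CPM in cpr5 (-1.04, adjusted p = 0.00703). The groups were separate for each of these genes. MGD1, the housekeeping galactolipid synthase of the plastid, fell too, at 677, 850.0 and 429.9 CPM in wild type and 271, 272 and 214 CPM in cpr5 (-1.37, adjusted p = 0.00876). SPX1, a phosphate sensor, and the transporter PHT1;4 overlapped between groups, with log2 fold changes of -0.72 and -0.85 (adjusted p = 0.27 and 0.354). PHR1 itself was at 45.8, 48.3 and 46.9 CPM in wild type and 53.4, 55.9 and 50.3 CPM in cpr5 and did not pass (0.18, adjusted p = 0.433).

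PHR1 binds the P1BS element, searched as GNATATNC. It was found in the 300 bases before 9 of 32 phosphate starvation genes (28.1%), 2 of the 7 that fell (28.6%) and 6.61% of all tested genes. The last 60 bases before the gene start of the 2 fallen genes that hold it are printed, with P1BS in capitals.
AT4 (chr5:894522-894581, plus strand): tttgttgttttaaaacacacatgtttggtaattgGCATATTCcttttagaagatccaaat
MGD2 (chr5:6896403-6896462, plus strand): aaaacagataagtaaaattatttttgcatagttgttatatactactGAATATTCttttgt
The element begins 26 bases before the gene start in AT4 and 14 bases before it in MGD2.

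The xpo4-2 libraries lay below wild type for the same phosphate RNAs. AT4 was at 56.8 and 70.97 CPM in xpo4-2 and 154, 175 and 105 CPM in the double mutant. IPS1 was at 4.504 and 2.53 CPM in xpo4-2 and 20.6, 20.4 and 7.02 CPM in the double mutant, and IRT1 at 0.222 and 0.799 CPM in xpo4-2 and 1.09, 2.08 and 0.893 CPM in the double mutant. The comparisons of cpr5 and of xpo4-2 with wild type share the wild-type libraries, so these levels are given side by side and make no separate result.

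**Figure D4:**
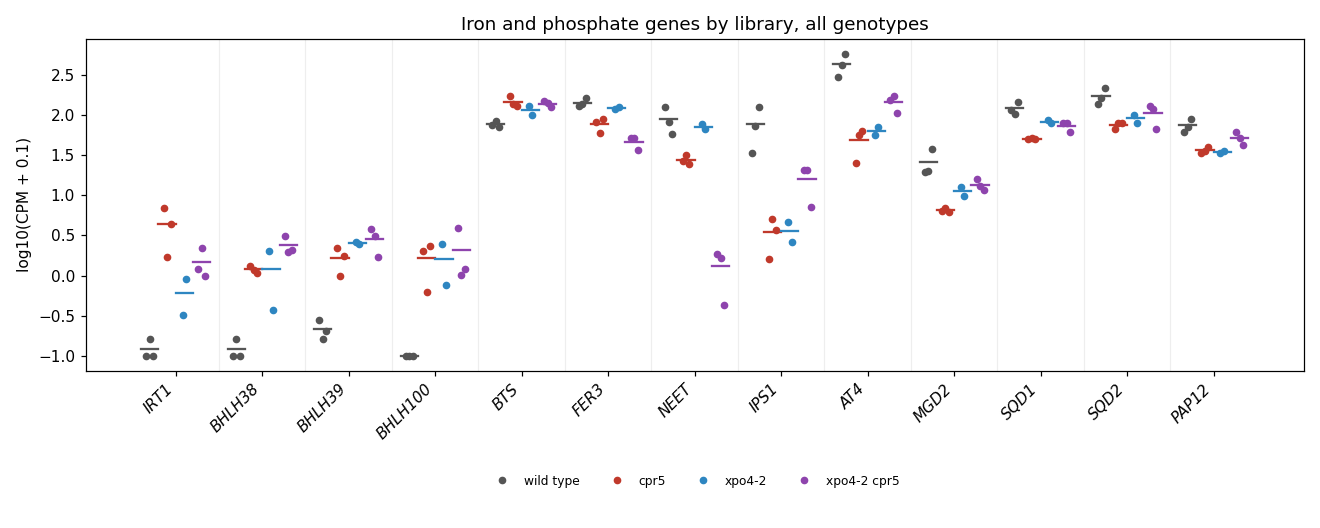
Level of iron genes (left) and phosphate starvation genes (right) in each library of the 4 genotypes, as log10(CPM + 0.1), with a bar at the group mean. The subgroup Ib bHLH genes shown are lowest in wild type, and AT4 and IPS1 are highest in wild type.

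Of 43 sugar transport, invertase and dark-inducible genes 13 rose and 2 fell (30.2% and 4.65%), with 5 rises left without cpr5 replicate 1. DIN2, a dark-inducible glucosidase, was at 0.301, 3.85 and 4.37 CPM in wild type and 38.7, 22.3 and 41.4 CPM in cpr5 (log2 fold change 3.57, SE 0.65, adjusted p = 0.0107). SEN1, also known as DIN1, was at 58.6, 71.5 and 70.7 CPM in wild type and 289, 258 and 282 CPM in cpr5 (2.05, adjusted p = 0.0173, and 0.0614 without cpr5 replicate 1). TPS11, a trehalose phosphate synthase-like protein induced by low sugar, was at 82.5, 102 and 97.3 CPM in wild type and 198, 226 and 220.4 CPM in cpr5 (1.19, adjusted p = 0.00064), in groups that were well apart. Outside this list AT3G15450, described as an aluminum-induced protein, rose from 899 ± 55.1 to 2092 ± 224 CPM (1.22, adjusted p = 0.00115). The wall-bound enzyme cwINV6 rose by 2.47 and the polyol transporter PMT5 by 0.74 (adjusted p = 0.00908 and 0.00876). The vacuolar transporter SWEET16 fell, from 67.1 ± 5.04 to 32.5 ± 0.732 CPM (-1.04, adjusted p = 0.00356). GBSS1, also outside the list, which makes the amylose of starch, fell from 42.2 ± 11.9 to 10.1 ± 1.25 CPM (-2.06, adjusted p = 0.00116).

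Photosynthesis and growth genes showed few calls. None of 60 nuclear photosystem and antenna genes and none of 19 Rubisco and Calvin cycle genes passed with edgeR (medians -0.03 and -0.28). The unadjusted p was under 0.05 for 8 and 6 of them, and DESeq2 called 0 and 2. Over all 21580 genes tested these counts were 4788 at the unadjusted p and 2611 by DESeq2. Of 76 genes of the plastid genome 6 fell, with a median of -0.55. Of these 6, ATCG00950 and ATCG01180 held equal counts in every library, as did ATCG00920 and ATCG01210, so each pair is 1 measurement. ATCG00950 was at 1069, 792 and 597 CPM in wild type and 301, 274 and 300.4 CPM in cpr5 (-1.49, adjusted p = 0.0118, and 0.0542 without cpr5 replicate 1). Without cpr5 replicate 1, 1 of the 6 falls was left. The summed level of the list was 4720, 3560 and 3040 CPM in wild type and 1760, 1470 and 1540 CPM in cpr5, in groups that did not overlap (exact permutation test, two-sided p = 0.1, the smallest 3 against 3 can give). In the 2 xpo4-2 libraries it was 3460 and 1710 CPM, so this sum can differ widely within 1 genotype. This sum includes both genes of each equal pair, so these measurements are counted at both genes and weigh more in it. Libraries of mRNA hold plastid transcripts, which lack stable poly(A) tails, in part only. Among 31 genes of the G2/M phase and 32 of S phase none passed with edgeR, with medians of 0.25 and 0.19 (unadjusted p under 0.05 for 3 and 1, and 3 and 0 called by DESeq2).

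Trichome and nuclear pore genes were examined because of the known cpr5 phenotypes. Of 28 trichome genes TTG1, a WD40 protein that promotes trichome fate, rose, at 31.8, 30.2 and 31.8 CPM in wild type and 55.4, 51.6 and 52.2 CPM in cpr5 (0.76, adjusted p = 0.00192), and the homeodomain gene HDG2 fell by 0.61 (adjusted p = 0.0349, and 0.126 without cpr5 replicate 2). Of 41 nucleoporin and transport genes the export receptor XPO1B rose, at 15.6, 20.08 and 19.5 CPM in wild type and 42.2, 38.6 and 39.2 CPM in cpr5 (1.12, adjusted p = 0.00191), and WIP2, an anchor of the nuclear envelope, fell by 1.02 (adjusted p = 0.0271, and 0.115 without cpr5 replicate 1). These shares, 2.44% in either direction, and those of the trichome list, 3.57% in either direction, are near those of all genes (4.30% and 2.34%). Of 10 cell cycle inhibitors of the SIM/SMR and KRP families KRP6 fell by 0.89 (adjusted p = 0.0351, and 0.133 without cpr5 replicate 3). SIM, a kinase inhibitor known to interact with CPR5, was at 9.58, 11.2 and 13.9 CPM in wild type and 14.3, 17.7 and 16.1 CPM in cpr5 and did not pass (0.47, adjusted p = 0.165).

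Nitrate genes changed in both directions. Of 46 genes 6 rose and 3 fell, with 2 rises and 1 fall left without cpr5 replicate 1. NRT1.5, which loads nitrate into the xylem, was at 6.57, 12.4 and 8.16 CPM in wild type and 30.4, 36.9 and 35.9 CPM in cpr5 (1.93, adjusted p = 0.0106). LBD39, a repressor of nitrate responses, was at 29.2, 28.9 and 25.7 CPM in wild type and 47.2, 44.3 and 48.8 CPM in cpr5 (0.74, adjusted p = 0.00634). Nitrate reductase NIA2 rose by 0.82 (adjusted p = 0.0115, and 0.051 without cpr5 replicate 1), while nitrite reductase, NIR, fell by 0.74 (adjusted p = 0.0235, and 0.104 without cpr5 replicate 1). NRT1.7, which moves nitrate out of old leaves, was at 179.7, 261 and 233 CPM in wild type and 11.3, 10.9 and 10.9 CPM in cpr5 (log2 fold change -4.35, SE 0.30, adjusted p = 0.000101), a fall far larger than the spread of either group.

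Among genes that passed with a mean of at least 5 CPM in the higher group, the 5 largest rises and the 2 largest falls by fold lay outside these lists. CPL2, described as a phosphatase of the RNA polymerase tail domain, had no count in wild type and 19.6, 11.6 and 7.85 CPM in cpr5, at least 227-fold higher against the same floor of 3 counts (adjusted p = 0.000749). It was also present in the xpo4-2 background, at 16.3 and 32.7 CPM in xpo4-2 and 26.9, 39.5 and 32.8 CPM in the double mutant. AT1G51035, an uncharacterized gene, had no count in wild type either and 6.08, 4.04 and 6.95 CPM in cpr5, at least 99.0-fold higher (adjusted p = 0.00123). AT1G75945, also uncharacterized, was at 0, 0.0601 and 0 CPM in wild type and 4.43, 6.83 and 9.06 CPM in cpr5, a ratio of summed counts of 349 (95% counting interval 62.3 to 13800) on 1 wild-type count (adjusted p = 0.000894). The cupin AT3G05950 was at 0.121, 0 and 0.0526 CPM in wild type and 21.7, 11.96 and 12.4 CPM in cpr5, a ratio of 269 (95% counting interval 91.6 to 1310) on 3 wild-type counts (adjusted p = 0.00115). Each of these 4 genes was under 1 CPM in every wild-type library and above 4 CPM in every cpr5 library. AT5G63225, with a carbohydrate-binding X8 domain, was at 0.0603, 0.1804 and 0.158 CPM in wild type and 7.95, 6.78 and 5.07 CPM in cpr5 (5.56, adjusted p = 3.49e-05). Of the falls, GGPS6, a geranylgeranyl pyrophosphate synthase, was at 9.28, 7.15 and 4.21 CPM in wild type and had no count in cpr5, at least 125-fold lower against a floor of 3 counts over the cpr5 libraries (adjusted p = 0.014, and 0.051 without cpr5 replicate 1). AT3G05170, of the phosphoglycerate mutase family, was at 6.75, 10.7 and 8.95 CPM in wild type and 0.1601, 0.259 and 0.121 CPM in cpr5 (-5.55, adjusted p = 3.49e-05) and at 9.34 and 8.305 CPM in xpo4-2 and 11.4, 10.3 and 12.7 CPM in the double mutant. Its level in cpr5 was thus below that in each of the other 3 genotypes, while CPL2 was without counts in wild type only.

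Further large changes followed, and those of PP2-B13, PP2-B14, AT1G03220, BAT1 and the metal proteins were picked after their values were seen. AT4G33720, a secreted protein of the PR1 superfamily, was at 2.23, 3.19 and 3.58 CPM in wild type and 142, 129.8 and 128 CPM in cpr5 (log2 fold change 5.47, SE 0.33, adjusted p = 3.49e-05). Of the terpenoid enzymes, CYP76C5 was at 0, 0.541 and 0 CPM in wild type and 7.52, 4.56 and 5.44 CPM in cpr5 (adjusted p = 0.00236) and DXPS1 at 0, 0.601 and 0.579 CPM in wild type and 13.6, 8.44 and 11.9 CPM in cpr5 (adjusted p = 0.00726). Both terpenoid enzymes were under 1 CPM in every wild-type library. PP2-B13, a phloem lectin-like F-box protein, was at 7.11, 7.34 and 6.16 CPM in wild type and 49.5, 42.7 and 52.2 CPM in cpr5 (log2 fold change 2.81, SE 0.15, adjusted p = 3.49e-05). Its neighbour PP2-B14 was at 1.99, 2.22 and 2.53 CPM in wild type and 16.8, 17.96 and 23.1 CPM in cpr5 (3.10, adjusted p = 0.000811). The aspartyl protease AT1G03220 was at 146, 168 and 158 CPM in wild type and 545, 517 and 561 CPM in cpr5 (1.78, adjusted p = 0.000254). Each of the 3 showed a spread within groups that was small beside the difference. Of 50 genes described as copper transport or heavy metal detoxification proteins 9 rose and 1 fell (18.0% and 2.0%, against 4.30% and 2.34% over all genes). Whichever library was left out, 6 of the rises and the fall passed. AT5G52760, of this family, was at 9.04, 16.2 and 22.8 CPM in wild type and 182, 114 and 98.3 CPM in cpr5 (3.03, adjusted p = 0.00115), and AT3G56891 rose from 0.9300 ± 0.284 to 16.99 ± 5.32 CPM (4.18, adjusted p = 0.000837). Among the falls, BAT1, an amino acid transporter, was at 38.2, 31.99 and 32.6 CPM in wild type and 9.55, 10.1 and 7.73 CPM in cpr5 (-1.90, adjusted p = 0.000441), and MAPKKK17, a kinase of abscisic acid signalling, at 32.2, 39.5 and 19.7 CPM in wild type and 6.62, 8.49 and 4.89 CPM in cpr5 (-2.19, adjusted p = 0.00288). BGLU28, a glucosidase, was at 12.2, 20.3 and 15.6 CPM in wild type and 0.907, 3.73 and 2.11 CPM in cpr5 (-2.83, adjusted p = 0.00624). AT5G26220, a ChaC-like protein of the family that degrades glutathione, fell from 30.9 ± 4.25 to 6.05 ± 2.58 CPM (-2.35, adjusted p = 0.00431). SESA1, a seed albumin, was at 49.7, 67.8 and 38.1 CPM in wild type and 8.004, 7.82 and 8.16 CPM in cpr5 (-2.70, adjusted p = 0.00235). Of the other seed storage genes 2 were tested, and neither passed.

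The 5 libraries in the xpo4-2 background gave a separate estimate of the cpr5 effect with none of the same samples. Of the 928 rises 818 had a positive log2 fold change there (88.1%) and 602 also passed (64.9%, against 13.2% of all genes tested that rose there). Of the 505 falls 423 were negative (83.8%) and 296 also passed (58.6%, against 15.5% that fell there). Without xpo4-2 replicate 1, 432 of the rises and 213 of the falls passed in the same direction. With all 11 libraries in the fit, 27 of the 928 rises and 29 of the 505 falls passed there in the opposite direction. Over all genes tested the direction was shared by 65.4%. The log2 fold changes of both backgrounds had a Pearson correlation of 0.414 over all 21580 genes and 0.692 over the 1433 called. The 1433 were chosen by their change against wild type, so 0.692 cannot be compared directly with 0.414. Both are descriptions across genes, which are not independent replicates, from fits that share their scaling and spread. With 2 xpo4-2 libraries this background rests heavily on each, and without xpo4-2 replicate 1 its calls were 1315 rises and 1928 falls, in place of 2841 and 3348. With no scaling beyond library totals, which shifted the median of all genes there from 0.03 to 0.32, the split was 4852 rises to 2155 falls, and 694 of the 928 and 219 of the 505 passed in the same direction.

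Among immune genes, some kept their direction there and some did not. RLP23 rose by 5.81 (adjusted p = 0.00016), BAP2 by 5.71 (adjusted p = 1.28e-05), EDS1 by 1.44 (adjusted p = 0.000227) and NPR1 by 0.84 (adjusted p = 0.000713). The lectin AT3G15356, the methyltransferase IGMT2, MPK3 and SYP121 rose against wild type and had log2 fold changes below 0 there, of -0.91, -0.52, -0.30 and -0.21 (adjusted p = 0.0298, 0.407, 0.173 and 0.313), and the difference between the backgrounds passed for each of the 4. The jasmonate gene CYP94B1 fell by 2.12 (adjusted p = 0.000378). ICS1, which missed the threshold against wild type, rose there by 4.17 (adjusted p = 7.3e-05), at 17.6 and 24.1 CPM in xpo4-2 and 420.5, 309 and 401 CPM in the double mutant, and the difference between the backgrounds was 3.13 (adjusted p = 0.00361).

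Phosphate genes and NRT1.7 did not keep theirs. Of the 32 phosphate starvation genes 15 rose in the xpo4-2 background and none fell, and the difference between the backgrounds passed for 16, all upward. This rested on xpo4-2 replicate 1, without which 1 of the 32 rose and the difference passed for 5. AT4 rose by 1.18 there (adjusted p = 0.045, and 0.237 without xpo4-2 replicate 1), with a difference of 4.34 (adjusted p = 0.00235), and IPS1 by 2.19 (adjusted p = 0.0341, and 0.181 without xpo4-2 replicate 2), with a difference of 6.72 (adjusted p = 0.00355). Both differences passed whichever library was left out. IRT1 changed by 1.37 on the log2 scale there (adjusted p = 0.251), with a difference of -6.00 (adjusted p = 0.023, and 0.11 without xpo4-2 replicate 2). NRT1.7 rose by 6.53 there (adjusted p = 2.49e-05), at 1.45 and 2.49 CPM in xpo4-2 and 211, 109 and 233 CPM in the double mutant, with a difference of 10.87 (adjusted p = 1.41e-05). Photosystem genes, with no call against wild type, fell in 55 of 60 cases there (median -2.16), and the difference passed downward for 48, with 51 and 41 as the fewest with a library left out, in both cases xpo4-2 replicate 1. Over all genes the difference passed for 691 upward and 1189 downward (3.2% and 5.51% of those tested, 8.71% together), and for 211 and 416 without xpo4-2 replicate 1. With no scaling beyond library totals the split was 1354 upward to 784 downward, on a median shift of 0.25, while the difference still passed downward for 47 photosystem genes and upward for 19 phosphate genes.

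**Figure D5:**
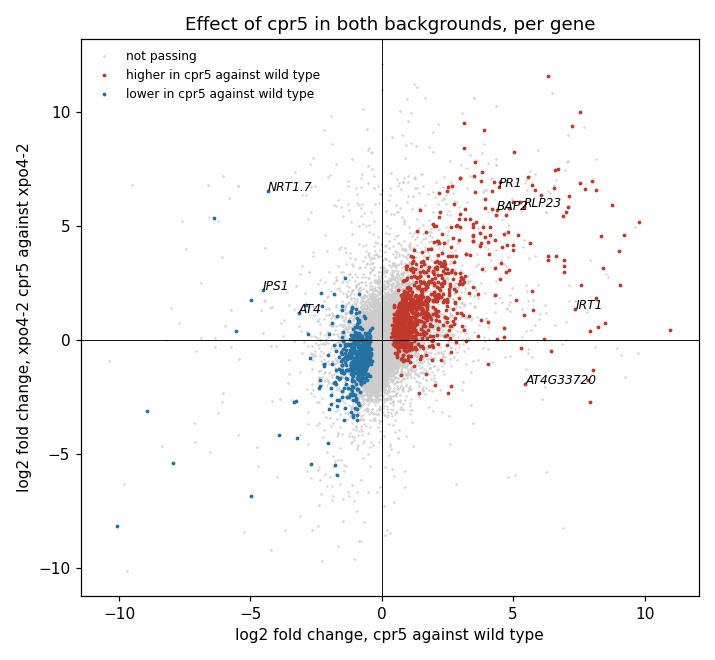
Each point is a gene, with the log2 fold change of cpr5 against wild type on the x axis and that of the double mutant against xpo4-2 on the y axis. Genes that rose (red) and fell (blue) against wild type lie mostly in the quadrants of shared direction, with NRT1.7, IPS1, AT4 and AT4G33720 among the exceptions.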

How the data were processed

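The table of raw counts per gene was deposited by the authors, and a second table holds the authors' deposited TPM values. The submitters' processing notes name the tools HTSeq 0.6.1p1 and HISAT2 2.0.4 and the build TAIR10, with no role for each, and the TPM file is credited to kallisto by its name. Counting settings such as strand are not given in the sources used here, and overlapping or near-identical genes may share reads.

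Samples were grouped by the genotype in their labels. Counts were fitted with edgeR 4.0.16 in R 4.3.3 (filterByExpr by group, TMM scaling, quasi-likelihood test), with all 11 libraries in 1 fit and 1 term per group. Standard errors are the log2 fold change divided by the square root of F. The method was tested on simulated data. Alternatives were DESeq2 1.42.0, limma 3.58.1 on the deposited log2(TPM + 0.5), other scalings and filters, a replicate block and leaving out each library. Gene symbols and promoters came from RefSeq's TAIR10.1 annotation and genome.

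The comparison and its 59 gene lists were chosen with earlier results of these data known, and 20 list members were dropped by name after values were seen. In the lists, 1730 distinct genes were tested. Genes named are list members, led by those with the lowest adjusted p and by defining members, and some of the largest changes over all genes, the 5 largest rises and 2 largest falls by fold among them (groups apart, at least 5 CPM in the higher group). AT1G03220, AT1G35710, AT1G56520, AT3G15356, AT3G56891, AT5G41750, AT5G52760, AT5G58120, BAT1, GBSS1, MC8, MGD1, PP2-B13, PP2-B14, RLP36 and RLP38 fall outside this rule and were chosen after their values were seen. Lists are described by counts and medians with no set test.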

Additional observations from a re-analysis of the deposited data

Results flagged for a closer look

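The cpr5 effect, measured in wild type and again in the xpo4-2 background, differed between them for 54 of the genes named here by the interaction test of edgeR (adjusted p under 0.05). Over all genes tested the share was 8.71%. Many named genes were chosen by their change against wild type, which enters this difference, so the count cannot be compared with that share. Of the 54 genes, 20 passed whichever library was left out, among them CPL2, AT1G75945, AT3G05950, AT3G05170, NRT1.7, AT4G33720, PP2-B13, AT4, IPS1, MGD2, PAP12, ICS1, WRKY54, NEET and TPS11. Each value is the log2 fold change of cpr5 in the xpo4-2 background minus that in wild type, and genes of the other background rest on 2 xpo4-2 libraries.

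Immune genes that rose more in the xpo4-2 background were WRKY54 (3.42), CRK37 (4.11), RLP38 (3.69), AIG1 (2.64), PBS3 (2.54), WRKY63 (2.32), CRK15 (2.04), WRKY70 (1.79), DMR6 (1.44), CBP60G (1.08), EXO70E2 (1.01), MYB51 (0.97) and UGT74F2 (0.78). ICS1 (3.13) and FLS2 (2.21), which did not pass against wild type, rose there.

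Genes that rose against wild type and did not rise in the xpo4-2 background were the secreted PR1-like AT4G33720 (-7.41), the methyltransferases IGMT2 (-3.17) and IGMT1 (-1.93), the lectin AT3G15356 (-3.16), PP2-B13 (-2.92), NRT1.5 (-2.81), AT1G03220 (-2.04), AT3G15450 (-1.27), MPK3 (-1.07), TPS11 (-1.03), SYP121 (-0.93), LYK4 (-0.90) and LBD39 (-0.87). AT4G33720 was at 21.4 and 44.1 CPM in xpo4-2 and 8.01, 11.1 and 6.49 CPM in the double mutant, and AT3G15356 at 143 and 222 CPM in xpo4-2 and 86.9, 82.5 and 122 CPM in the double mutant. Smaller rises that still passed were those of PP2-B14 (-2.02) and the TIR-type AT5G58120 (-1.27). CPL2 (-10.55), AT1G75945 (-9.36) and AT3G05950 (-10.65), none of which rose in the xpo4-2 background, and the iron genes IRT1 (-6.00), BHLH39 (-3.50) and BHLH100 (-7.56) had 6 or fewer counts in wild type, so the size of these differences depends on the prior count of the fit.

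Genes that fell against wild type and not in the xpo4-2 background were NRT1.7 (10.87), IPS1 (6.72), AT4 (4.34), BGLU28 (3.10), GA2OX8 (2.63), AT3G05170 (5.92), MGD2 (2.29), PAP12 (1.60), SQD2 (1.41), GBSS1 (1.40) and SQD1 (1.09). PHT1;4 (3.35) and SPX1 (2.63), which passed against wild type in neither direction, rose there. Falls that were larger there were those of NEET (-4.21), SESA1 (-2.73), COR15A (-2.47) and NIR (-0.91). AOS (-1.47) did not pass against wild type and fell there.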

How the results depend on the processing

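Of the 143 named genes that pass, 98 passed whichever of the 11 libraries was left out. Under each of the other alternatives that gave a value 129 passed, and no alternative turned the direction of any of the 143. Many of these genes were named for a low adjusted p, and the alternatives reuse the same libraries, so a kept direction is no separate support. Over all called genes, 337 of the 928 rises and 70 of the 505 falls passed whichever library was left out. Leaving out a library moved the rises in cpr5 against wild type from 928 to between 357 and 1274 and the falls from 505 to between 98 and 826. In the xpo4-2 background the rises ranged from 1315 to 3399 and the falls from 1928 to 3638, and the difference between backgrounds passed upward for 211 to 1122 genes and downward for 416 to 1614. DESeq2 called 1520 rises and 1092 falls, which include 927 of the 928 and all 505 of edgeR. Other scalings, filters, limma on log2(TPM + 0.5) or log2(TPM + 0.1), and a fit of the 6 libraries alone gave 660 to 1128 rises and 352 to 537 falls. With no scaling beyond library totals the xpo4-2 background gave 4852 rises and 2155 falls and the difference 1354 upward and 784 downward. DESeq2 called 1345 upward and 1739 downward differences. The median log2 fold change over all genes in cpr5 against wild type stayed between -0.0226 and 0.0807 in all settings.

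With the replicate number as a block, cpr5 against wild type gave 841 rises and 429 falls, 758 and 366 of them shared with the fit without it. The difference between backgrounds then passed upward for 444 genes and downward for 969. Deviations of same-numbered cpr5 and wild-type libraries from their group means correlated at -0.052, 0.056 and 0.067, so the numbers were not taken to pair the samples. Between the other genotypes these correlations ran from -0.113 to 0.286, the highest for replicate 1 of wild type and of xpo4-2. With 3 libraries a group and a more variable wild type, small changes could go undetected, and a missing call does not show equal levels. Exact tests of 3 against 3 cannot give a p under 0.1.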

Other observations

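Other annotated families and lists gave further counts, with no test of the group, and the families were picked after their values were seen. Of 26 VQ motif proteins, partners of WRKY factors, 5 rose and none fell (19.2% against 4.30% over all genes), and 4 of the 5 passed whichever library was left out. Of 72 peroxidases 13 rose and none fell, and 1 of the 13 passed in each of those fits. Of 38 germin-like cupins 6 rose and none fell, with 4 passing in each. Among 52 aspartyl proteases 9 rose and 4 fell, with 6 and 2 passing in each. Of 159 cytochrome P450 enzymes 13 rose and 9 fell (8.18% and 5.66%). Of 117 UDP-glycosyltransferases 6 rose and 4 fell (5.13% and 3.42%), shares near the 4.30% and 2.34% over all genes. Of 319 ribosomal proteins 1 rose (0.313%) and none fell.

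Of 30 endoplasmic reticulum chaperone and stress genes 4 rose (13.3% against 4.30% over all genes), with 2 left without wild-type replicate 1. Of 29 senescence genes 6 rose and 1 fell (20.7% and 3.45%, against 4.30% and 2.34%), with 1 rise left without cpr5 replicate 1. COR15A, a cold-regulated protein of the plastid, was at 515, 377 and 146 CPM in wild type and 109, 70.7 and 70.1 CPM in cpr5 (-2.05, adjusted p = 0.0177, and 0.0817 without cpr5 replicate 3). It was 1 of 2 falls among 22 CBF and COR genes, of which none rose. Of 127 auxin genes 5 rose and 3 fell, and of 41 cytokinin genes 2 rose and none fell, shares near those of all genes.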
